A study of Mus musculus with 9 samples.

Results

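The thrombospondin and caveolin genes of the mouse, 7 in all among the 25239 gene symbols counted, were followed in RNA-seq libraries of E14 embryonic stem cells (ESCs), a mouse line labelled with the strain 12910la. They were found by symbol and are *Thbs1*, *Thbs2*, *Thbs3* and *Thbs4*, and *Cav1*, *Cav2* and *Cav3*. The control line carried unmutated *Rbbp4* (*Rbbp4+/+*), the line *Rbbp4Ins/Ins* an insertion on both alleles, and the line *Rbbp4Ins/Del* the insertion on one allele and a deletion on the other. All lines grew in serum with leukemia inhibitory factor and gave 3 libraries each, 9 in all. RBBP4 is a histone-binding subunit shared by Polycomb repressive complex 2 and histone deacetylase complexes. Each mutant line is a single CRISPR clone, and the labels do not say whether the libraries of a line came from separate cultures, so a p-value measures the spread between these libraries, which may be technical.

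The genes were chosen because *Thbs1* and *Cav1* were low in both mutants in these same libraries. Their differences between mutant and control are therefore given as descriptions without a test. A choice for low levels in both mutants also favours genes that are alike in them, so between the mutants *Thbs1* too is described without a test, and a test is given for *Thbs2*, *Thbs3* and *Thbs4* alone. The 2 mutant contrasts also share their control libraries.

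Thrombospondins are large secreted glycoproteins of the extracellular matrix that bind calcium, other matrix proteins, integrins, CD36, CD47 and lipoprotein receptors. THBS1 and THBS2 form trimers, carry type 1 repeats and inhibit the growth of vessels, and THBS1 can release TGF-beta from its latent complex. THBS3 and THBS4 lack type 1 repeats and form pentamers, as does the cartilage protein COMP. Caveolins are hairpin-shaped membrane proteins that, with the cavins, build the flask-shaped pits of the plasma membrane called caveolae. CAV1 is needed for caveolae outside striated muscle, CAV2 assembles with CAV1, and CAV3 is the muscle form.

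The libraries held 15838064 to 21366868 counted reads. Counts were scaled to a common library size by the trimmed mean of M-values (TMM), and such values are called normalized counts. The edgeR quasi-likelihood test was fitted to the 14125 genes that passed a filter on low counts, and a gene was called when its adjusted p (Benjamini-Hochberg over all tested genes) was at most 0.01. *Rbbp4* itself stood at 10005 ± 99.1 normalized counts in control libraries, at 5604 ± 153 in *Rbbp4Ins/Ins* and at 10359 ± 238 in *Rbbp4Ins/Del* (SD, n = 3 each). Counts per gene cannot show either allele. The ESC markers *Pou5f1*, *Nanog*, *Sox2* and *Esrrb* were abundant in every line. *Esrrb*, the lowest of these 4, had 7135, 10431 and 10733 normalized counts in control, *Rbbp4Ins/Ins* and *Rbbp4Ins/Del*. Of 8 ESC markers listed, 1 was called lower and 4 higher in both mutants, beside 26.7% and 25.6% of all tested genes.

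*Thbs1* was the main thrombospondin of control ESCs and was low in every mutant library. Its plus-strand gene spans 118111876 to 118127133 on chromosome 2 of the mouse build mm10. The control libraries held 2600, 2288 and 2407 normalized counts of *Thbs1*, the *Rbbp4Ins/Ins* libraries 180, 195 and 146, and the *Rbbp4Ins/Del* libraries 194, 208 and 170. The groups of mutant and control libraries stood far apart, while the libraries of the mutants overlapped. The mean was 14-fold lower in *Rbbp4Ins/Ins* (log2 fold change -3.81, standard error 0.069) and 12.8-fold lower in *Rbbp4Ins/Del* (-3.66, 0.068). Of the 14125 tested genes, 60 had a lower estimate than *Thbs1* in *Rbbp4Ins/Ins* and 107 in *Rbbp4Ins/Del*. The reads behind these values ran from 2184 to 3041 per control library and from 138 to 230 per mutant library, so the gene remained measurable in both lines.

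**Figure D1:**
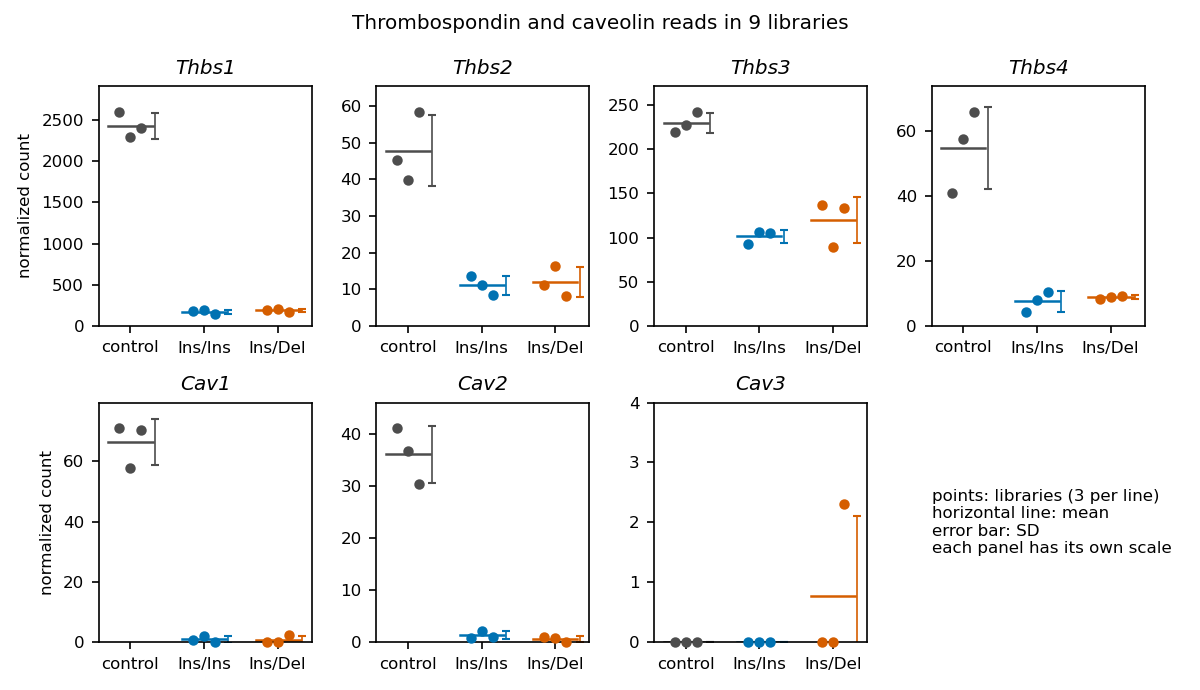
Normalized counts of the 7 genes in each library (points), with the group mean (horizontal line) and SD (error bar) for control, *Rbbp4Ins/Ins* and *Rbbp4Ins/Del*, 3 libraries each and a separate linear scale per gene. For *Thbs1*, *Thbs2*, *Thbs3*, *Thbs4*, *Cav1* and *Cav2* every mutant library lies below every control library, and *Cav3* is at 0 in 8 of 9 libraries.

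*Thbs4*, found in tendon, muscle and nerve, showed the next largest difference of the family after *Thbs1*. Its minus-strand gene spans 92751590 to 92794818 on chromosome 13. Normalized counts were 41.0, 57.6 and 66.0 in the control, 4.28, 7.90 and 10.6 in *Rbbp4Ins/Ins*, and 8.18, 9.02 and 9.26 in *Rbbp4Ins/Del*. No mutant library reached the lowest control library. The log2 fold change was -2.86 (standard error 0.31) in *Rbbp4Ins/Ins* and -2.60 (0.30) in *Rbbp4Ins/Del*.

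*Thbs2*, which like *Thbs1* encodes an inhibitor of vessel growth, spans 14665500 to 14694235 on the minus strand of chromosome 17. Its control libraries held 45.3, 39.8 and 58.5 normalized counts, the *Rbbp4Ins/Ins* libraries 13.7, 11.3 and 8.46, and the *Rbbp4Ins/Del* libraries 11.2, 16.2 and 8.10. The mutant libraries overlapped each other and stayed below the control. The log2 fold change was -2.06 (standard error 0.28) and -1.96 (0.28) in *Rbbp4Ins/Ins* and *Rbbp4Ins/Del*.

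*Thbs3* showed the smallest difference of the family. Its plus-strand gene spans 89215180 to 89226837 on chromosome 3. The control libraries held 220, 227 and 243 normalized counts, the *Rbbp4Ins/Ins* libraries 93.2, 106 and 106, and the *Rbbp4Ins/Del* libraries 137, 89.3 and 133. The control libraries stood clear of both mutants, although *Rbbp4Ins/Del* spread more widely than *Rbbp4Ins/Ins*. The log2 fold change was -1.18 (standard error 0.12) in *Rbbp4Ins/Ins* and -0.95 (0.12) in *Rbbp4Ins/Del*, where it was 1.92-fold lower. *Mtx1*, a gene of the mitochondrial outer membrane on the opposite strand, overlaps 6.59% of the exonic length of *Thbs3*. The strand setting of the counting was not given in the sources used here, so reads in that overlap could belong to either gene. *Mtx1* rose, from 734 ± 20.9 normalized counts in the control to 875 ± 44.6 in *Rbbp4Ins/Ins* and 956 ± 9.01 in *Rbbp4Ins/Del* (SD, n = 3, edgeR adjusted p = 4.8e-05 and 2.7e-08).

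The family as a whole was compared per length, in RPKM (reads per kilobase of exon, scaled to library size). The summed level of the 4 thrombospondins was 25.9 ± 1.26 RPKM in the control, 2.94 ± 0.222 in *Rbbp4Ins/Ins* and 3.32 ± 0.191 in *Rbbp4Ins/Del* (SD, n = 3). *Thbs1* made up 84.9% of that sum in the control (83.4 to 86.9% over libraries), 53.3% in *Rbbp4Ins/Ins* (47.7 to 56.8%) and 51.9% in *Rbbp4Ins/Del* (47.0 to 59.2%). The share of *Thbs3* was 10.1%, 39.4% and 40.8% in the same order. The sum was thus nearly all *Thbs1* in the control and mostly *Thbs1* and *Thbs3* together in the mutants.

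In the control the order of levels per length was *Thbs1* at 22.0 ± 1.42 RPKM, *Thbs3* at 2.61 ± 0.132, *Cav1* at 1.06 ± 0.120, *Thbs4* at 0.915 ± 0.212, *Cav2* at 0.592 ± 0.0886 and *Thbs2* at 0.375 ± 0.0751. The libraries of *Cav1* and *Thbs4* overlapped in this order, and no other neighbours did. In *Rbbp4Ins/Ins*, *Thbs1* stood at 1.57 ± 0.229 RPKM and *Thbs3* at 1.16 ± 0.0831, without overlap. In *Rbbp4Ins/Del* they stood at 1.72 ± 0.171 and 1.36 ± 0.301 RPKM, and their libraries overlapped.

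**Figure D2:**
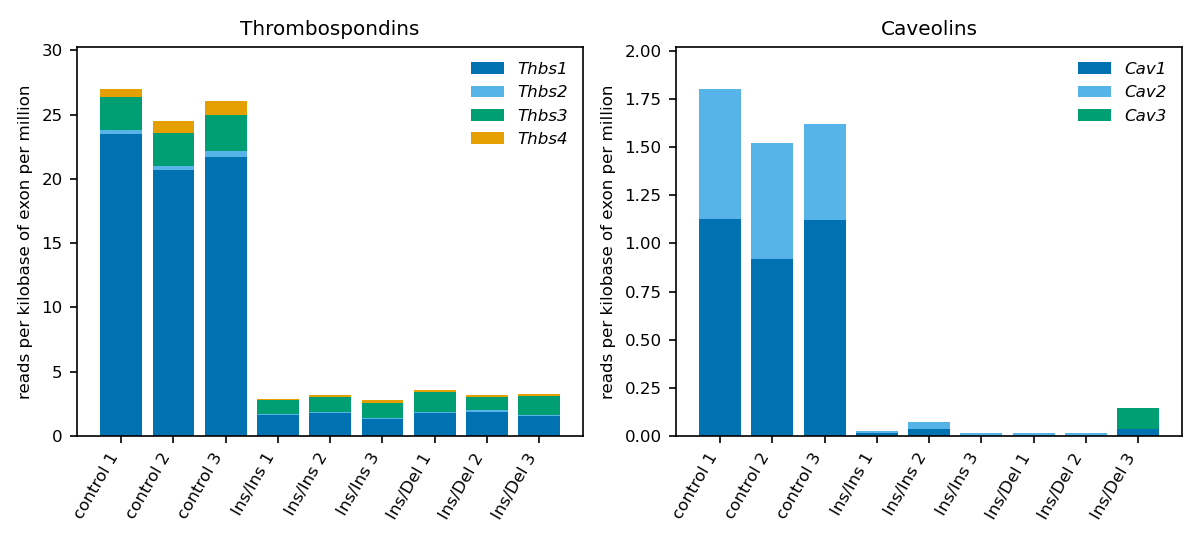
Stacked levels of the thrombospondins (left) and caveolins (right) in each of the 9 libraries, in RPKM on linear axes that start at 0. Control bars reach 24.5 to 27.0 for the thrombospondins against 2.76 to 3.54 in the mutants, and the only *Cav3* segment is that of *Rbbp4Ins/Del* replicate 3.

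*Cav1* and *Cav2* had 0 to 2 reads in each mutant library, against 28 to 83 reads in each control library. The control libraries held 83, 55 and 65 reads of *Cav1*, the *Rbbp4Ins/Ins* libraries 1, 2 and 0, and the *Rbbp4Ins/Del* libraries 0, 0 and 2. For *Cav2* the control libraries held 48, 35 and 28 reads, the *Rbbp4Ins/Ins* libraries 1, 2 and 1, and the *Rbbp4Ins/Del* libraries 1, 1 and 0. Both genes were thus present at a low level in the control and at or near the limit of detection in both mutants.

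With so few reads, the size of the difference is known only within wide limits. The ratio of *Cav1* in control over *Rbbp4Ins/Ins* was 66.6 (95% exact interval 22.5 to 326) and over *Rbbp4Ins/Del* 98.3 (26.9 to 817). For *Cav2* the ratios were 27.3 (10.4 to 102) and 53.7 (14.5 to 449). These intervals come from the summed reads of each line and cover counting error only. Differences between *Cav1* and *Cav2*, and between the mutants, lie within them.

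*Cav3*, the muscle caveolin, had 0 reads in 8 of 9 libraries and 2 reads in *Rbbp4Ins/Del* replicate 3, and it was not tested. Its plus-strand gene spans 112459505 to 112472872 on chromosome 6, far from *Cav1* and *Cav2* on the same chromosome. A count of 0 allows up to 3 reads in a library, so the level of *Cav3* was at or below the limit of detection in all lines. The caveolin sum was 1.65 ± 0.144 RPKM in the control, 0.0394 ± 0.0296 in *Rbbp4Ins/Ins* and 0.0594 ± 0.0755 in *Rbbp4Ins/Del* (SD, n = 3). In *Rbbp4Ins/Del* that mean rests on replicate 3, whose 0.147 RPKM was mostly *Cav3*.

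The plus strand of chromosome 6 carries *Cav2* at 17281185 to 17289115 and *Cav1* at 17306335 to 17341452. Their starts are 25.2 kb apart, with 17.2 kb between the end of *Cav2* and the start of *Cav1*. The bases before both starts are shown because these neighbours were near 0 together in the mutants. The sequences are those of RefSeq on GRCm38.p6, from 250 bases before the start to the base before it, 5′ to 3′, at chr6:17280935-17281184 for *Cav2* and chr6:17306085-17306334 for *Cav1*. Capitals mark motifs searched on both strands. The AP-1 motif was searched as TGANTCA, that of TEAD factors as GGAATG and that of Sp factors as GGGCGG. The CCAAT box was searched by its own letters, the TATA box as TATAAA and the CArG box by its published consensus. Overlapping matches were allowed.
Cav2: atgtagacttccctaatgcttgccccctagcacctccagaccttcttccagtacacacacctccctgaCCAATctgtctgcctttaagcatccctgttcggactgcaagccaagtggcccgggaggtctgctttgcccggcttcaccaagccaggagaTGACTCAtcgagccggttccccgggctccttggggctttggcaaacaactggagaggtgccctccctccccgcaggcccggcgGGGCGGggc
Cav1: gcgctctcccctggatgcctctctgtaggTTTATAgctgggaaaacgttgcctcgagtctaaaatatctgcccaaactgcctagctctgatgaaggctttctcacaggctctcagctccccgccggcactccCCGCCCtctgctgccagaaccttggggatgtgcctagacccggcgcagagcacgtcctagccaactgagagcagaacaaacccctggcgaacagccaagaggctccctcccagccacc

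The window of *Cav2* held an AP-1 match at 92 bases before the start, a CCAAT match at 182 and an Sp match at 9, counted at the first base of the match. That of the *Cav1* start shown held an Sp match at 118 and a TATA match at 221. Of all 32851 RefSeq windows of this length, 6.75% held the AP-1 motif, 12.6% that of TEAD, 32.7% Sp, 33.8% the CCAAT box, 12.4% the TATA box and 1.47% the CArG box. *Cav1* and *Cav2* thus shared an Sp match, which is a common one, and no other. RefSeq gives *Cav1* another start inside the gene, and its window, at chr6:17307390-17307639, held none of the motifs and so no match shared with *Cav2*. A match describes the letters and not a bound site.

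For the thrombospondins, the window of *Thbs4*, whose difference was the largest after that of *Thbs1*, and that of *Thbs3*, whose difference was the smallest, are given in the same way. The window of *Thbs1* was not analysed here. They lie at chr13:92794819-92795068 on the minus strand and at chr3:89214930-89215179 on the plus strand.
Thbs4: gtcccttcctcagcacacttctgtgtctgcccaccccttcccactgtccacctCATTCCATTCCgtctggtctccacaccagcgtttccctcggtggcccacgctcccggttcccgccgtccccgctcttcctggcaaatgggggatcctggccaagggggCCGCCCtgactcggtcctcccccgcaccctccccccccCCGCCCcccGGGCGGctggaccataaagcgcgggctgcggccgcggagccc
Thbs3: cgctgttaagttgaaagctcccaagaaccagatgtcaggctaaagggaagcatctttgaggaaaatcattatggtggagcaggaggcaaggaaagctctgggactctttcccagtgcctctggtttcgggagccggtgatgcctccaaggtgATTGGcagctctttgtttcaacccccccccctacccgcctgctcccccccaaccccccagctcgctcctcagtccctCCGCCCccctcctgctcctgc

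*Thbs4* held TEAD matches at 197 and 192 bases before the start, which overlap by 1 base, and Sp matches at 89, 51 and 42. *Thbs3* held a CCAAT match at 98 and an Sp match at 21. The window of *Thbs2* held CCAAT matches at 186 and 144 and a TATA match at 126, and that of *Cav3* none of the motifs. The GC content was 70.8% for *Thbs4*, 62% for *Cav2*, 59.6% for *Cav1*, 58.8% for *Thbs3*, 56% for *Cav3* and 46.8% for *Thbs2*, against a median of 52.4% over all windows (quartiles 45.2 and 61.2%). No motif other than Sp was held by more than 3 of these 6 windows.

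Between the mutants, the thrombospondins differed by small amounts. For *Thbs1* the log2 difference, *Rbbp4Ins/Del* minus *Rbbp4Ins/Ins*, was 0.14 (95% interval -0.07 to 0.35). For *Thbs3* it was 0.23 (-0.05 to 0.50, edgeR adjusted p = 0.265). *Thbs2* and *Thbs4*, with fewer reads, gave 0.10 (-0.66 to 0.87) and 0.26 (-0.66 to 1.17), with edgeR adjusted p = 0.890 and 0.753. Neither edgeR nor DESeq2 called *Thbs2*, *Thbs3* or *Thbs4*, and 0 of the 3 had an unadjusted p under 0.05 with either tool. Of all tested genes, 10.8% were called in this contrast (4.64% lower and 6.17% higher in *Rbbp4Ins/Del*), and nothing is read from 0 of 3 beside that share. For *Cav1* and *Cav2*, with 0 to 2 reads in each mutant library, a difference between the mutants was not detectable at this depth, and no fold change is given. The intervals leave room for a difference of up to 1.17 in *Thbs4*, so the lines are not shown to be alike.

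Of the 7 genes, 6 passed the filter on low counts. *Cav1* and *Cav2* passed through the control libraries alone, and *Thbs4* through the control libraries and 1 mutant library, so these had to be higher in the control to be tested. In all 6, the highest mutant library was below the lowest control library, as in 30.6% of all tested genes. The genes were chosen on this contrast, and nothing is read from their number.

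The genes that work with these proteins were taken from lists written by hand. In each list the count of called genes is given beside the share of all 14125 tested genes called lower (29.4% in *Rbbp4Ins/Ins* and 31.9% in *Rbbp4Ins/Del*) or higher (29% and 30.6%). Over all tested genes, the median log2 fold change was 0.00 and -0.01. Called lower beyond 2-fold in both mutants were 8.1% of all tested genes, and called higher beyond 2-fold in both 6.58%. *Tnc*, *Ccn3*, *Ccn4*, *Itgb8*, *Adamts5*, *Adamts6*, *Spon1*, *Adgrb3* and the fibroblast marker *Col3a1* passed the filter on low counts through the control libraries alone. They had to be higher in the control to be tested, and the counts and medians of their lists include them. *Papln*, a type 1 repeat gene called higher in *Rbbp4Ins/Del* only, passed through the mutant libraries alone. It had to be higher in the mutants to be tested, and its list includes it.

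Among 15 tested receptors and partners of thrombospondins, 10 fell and 3 rose in *Rbbp4Ins/Ins*, and 9 fell and 4 rose in *Rbbp4Ins/Del*. The medians were -0.51 and -0.43 (log2). *Itga3* and *Itgb1*, which encode the chains of the integrin alpha3 beta1, fell from 2680 ± 57.5 to 755 ± 43.2 and 748 ± 25.7 normalized counts, and from 7967 ± 432 to 3609 ± 50.1 and 3776 ± 212 (SD, n = 3). *Cacna2d1*, a calcium channel subunit that binds thrombospondins, fell from 400.1 ± 21.0 to 173 ± 8.39 and 172 ± 14.2. *Vldlr*, a lipoprotein receptor, fell as well, with 120 ± 9.49, 59.8 ± 9.43 and 46.6 ± 7.44 in control, *Rbbp4Ins/Ins* and *Rbbp4Ins/Del*. *Cd47*, the receptor for the carboxy terminus of THBS1, fell from 246 to 173 and 149, with log2 fold changes of -0.51 (standard error 0.092) and -0.73 (0.095). *Cd36*, the receptor for its type 1 repeats, had a mean of 6.61 normalized counts in the control and was not tested.

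Other receptors went the opposite way. *Sdc4*, a heparan sulfate proteoglycan, rose 3.0-fold and 2.5-fold, from 784 ± 10.7 to 2351 ± 48.5 and 1976.5 ± 97.2 normalized counts. *Calr* and *Lrp1*, which encode the calreticulin and lipoprotein receptor pair that binds the amino terminus of THBS1, rose as well, *Lrp1* from 1654 ± 78.8 to 2350.5 ± 106 and 2893 ± 160. Between the mutants, *Lrp1* and *Itga6* were higher and *Sdc4* was lower in *Rbbp4Ins/Del* than in *Rbbp4Ins/Ins*. The receptors thus did not move as a block.

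Of 16 tested genes of the caveola coat and its partners, 10 fell and 3 rose in *Rbbp4Ins/Ins*, and 8 fell and 3 rose in *Rbbp4Ins/Del*, with medians of -0.44 and -0.48. *Ror1*, a receptor tyrosine kinase that scaffolds cavin and caveolin, fell from 191 ± 15.8 to 13.2 ± 4.40 and 8.0 ± 2.50 normalized counts. *Ehd2*, an ATPase at the caveolar neck, fell from 81.9 ± 7.17 to 31.5 ± 1.62 and 22.9 ± 3.20. *Flna*, the filamin that ties caveolae to actin, fell from 21173 ± 638 to 10924 ± 121 and 10962 ± 231. The dynamin *Dnm2*, which has many roles outside caveolae, rose from 1739 ± 26.5 to 2955 ± 52.7 and 3127 ± 95.2.

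Among the cavins, *Cavin1*, the coat protein needed for caveolae, had 748, 478 and 692 normalized counts in control, *Rbbp4Ins/Ins* and *Rbbp4Ins/Del*. It fell in *Rbbp4Ins/Ins* (log2 -0.64, standard error 0.062, edgeR adjusted p = 8.8e-12), had a log2 fold change of -0.12 in *Rbbp4Ins/Del* (edgeR adjusted p = 0.075) and differed between the mutants by 0.53 (edgeR adjusted p = 4.2e-08). *Cavin3* fell in *Rbbp4Ins/Ins*, with 21.7, 6.39 and 11.2 normalized counts in the same order, and missed the threshold in *Rbbp4Ins/Del* (edgeR adjusted p = 0.024). *Cavin4*, a muscle cavin, had 59.8, 53.0 and 67.9 and was not called. *Cavin2* was at or below 3 reads in every library. *Cavin1* RNA thus remained at 478 and 692 normalized counts in mutants in which *Cav1* and *Cav2* had at most 2 reads.

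**Figure D3:**
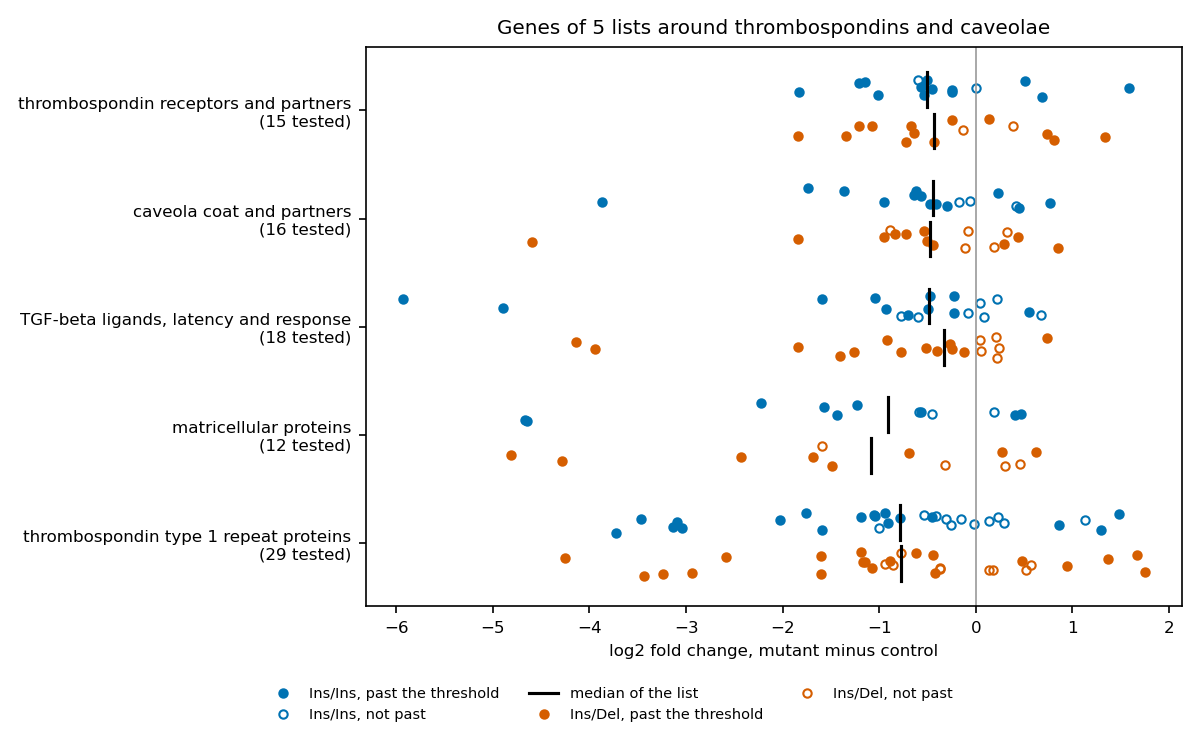
Log2 fold changes of the tested genes of 5 lists, for *Rbbp4Ins/Ins* (blue) and *Rbbp4Ins/Del* (orange) minus control, 3 libraries per line. Filled points have an edgeR adjusted p of at most 0.01 and black bars mark the list medians, which run from -1.09 to -0.33. Values of *Itgb8* and *Adamts6* rest on at most 3 reads per mutant library.

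Of 18 tested genes for TGF-beta ligands, their latency and the response to them, 10 fell and 1 rose in *Rbbp4Ins/Ins*, and 12 fell and 1 rose in *Rbbp4Ins/Del*, with medians of -0.49 and -0.33. *Tgfb2* fell from 181 ± 24.9 to 5.99 ± 3.53 and 10.5 ± 3.84 normalized counts. *Ltbp1* and *Ltbp3*, which anchor latent TGF-beta in the matrix, fell, *Ltbp1* from 546 ± 22.3 to 181 ± 15.0 and 206 ± 29.2 and *Ltbp3* from 55.8 ± 1.75 to 26.9 ± 4.07 and 23.8 ± 10.5. *Itgb8*, an integrin chain that activates latent TGF-beta, fell from 27.6 ± 3.53 normalized counts to at most 3 reads per mutant library, a ratio of control over *Rbbp4Ins/Ins* of 83.7 (95% exact interval 14.6 to 3344) and over *Rbbp4Ins/Del* of 16.5 (6.78 to 52.0). The gene that rose was *Tgfb1*, the ligand that THBS1 is known to activate, with 96.9, 142 and 161 normalized counts. Its call in *Rbbp4Ins/Ins* (log2 0.55, edgeR adjusted p = 0.00076) was lost without *Rbbp4Ins/Ins* replicate 2 (0.35, edgeR adjusted p = 0.027).

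Matricellular proteins, the secreted class to which thrombospondins belong, held 12 tested genes, of which 7 fell and 2 rose in *Rbbp4Ins/Ins* and 6 fell and 2 rose in *Rbbp4Ins/Del*. The medians were -0.91 and -1.09. *Tnc*, *Ccn1*, *Ccn2*, *Ccn3* and *Ccn4* fell beyond 2-fold in both mutants. *Ccn1* fell from 1160 ± 77.3 to 249 ± 5.58 and 214 ± 9.81 normalized counts, *Ccn2* from 1765 ± 93.5 to 651 ± 15.4 and 629 ± 30.7, and *Ccn4* from 87.9 ± 3.91 to 3.46 ± 2.96 and 4.45 ± 1.36. *Tnc* stood at 69.6, 2.80 and 2.48, and *Ccn3* at 21.3, 6.96 and 6.51. *Spp1*, osteopontin, and *Smoc1* rose, *Spp1* from 3027 ± 145 to 4025 ± 176 and 4667 ± 203.

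*Sparc*, an abundant matricellular gene of these cells, fell in both mutants, from 3207.5 ± 149 to 1369 ± 55.8 and 1996 ± 85.4, and less so in *Rbbp4Ins/Del* (difference 0.54, edgeR adjusted p = 1.9e-12). *Comp*, the other pentameric member of the thrombospondin group, had 17.5, 12.8 and 13.8 normalized counts and was not called in either mutant. Its log2 fold changes were -0.45 (standard error 0.33, edgeR adjusted p = 0.23) and -0.32 (0.33, edgeR adjusted p = 0.38).

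Proteins that share the type 1 repeat of THBS1 and THBS2 gave 29 tested genes. Of these, 14 fell and 3 rose in *Rbbp4Ins/Ins*, and 15 fell and 5 rose in *Rbbp4Ins/Del*, with medians of -0.78 and -0.77. The 9 that fell beyond 2-fold in both were the metalloproteases *Adamts1*, *Adamts3*, *Adamts4*, *Adamts5*, *Adamts6*, *Adamts15* and *Adamts19*, and *Spon1* and *Thsd7a*. *Adamts1*, like *Thbs1* an inhibitor of vessel growth, fell from 226 ± 20.4 to 27.2 ± 3.09 and 23.9 ± 3.89 normalized counts, and *Thsd7a* from 125 ± 9.63 to 9.66 ± 3.31 and 6.46 ± 0.424. *Adamts2*, a procollagen protease, and *Rspo4*, an enhancer of Wnt signalling, rose beyond 2-fold, *Adamts2* from 11 ± 6.17 to 28.1 ± 2.86 and 36.5 ± 5.95 and *Rspo4* from 11.3 ± 2.45 to 31.1 ± 5.98 and 29.0 ± 1.5. With DESeq2 the call of *Adamts3* in *Rbbp4Ins/Del* was lost (edgeR adjusted p = 0.0014 and DESeq2 adjusted p = 0.011).

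Genes near the members were examined because position was not used in the choice. Within 500 kb of the start of *Thbs1*, 5 genes were tested. *Srp14* rose and *Bmf* fell in both mutants by less than 2-fold, and *Fsip1*, *Eif2ak4* and *Bub1b* were called in neither. The nearest of them, *Fsip1*, starts 145 kb away and had a log2 fold change of 0.14 in *Rbbp4Ins/Ins* and 0.57 in *Rbbp4Ins/Del*. All 5 changed by less than 2-fold in both mutants.

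Around *Cav1* and *Cav2*, 4 other genes were tested. *Tes*, encoding a focal adhesion protein and starting at -241 kb from *Cav1*, fell from 486 ± 26.1 to 244 ± 3.51 and 225 ± 32.2 normalized counts (log2 -0.999 and -1.11, edgeR adjusted p = 8.1e-14 and 4.5e-15). *Met*, the receptor for hepatocyte growth factor, 157 kb after *Cav1*, fell from 338 ± 18.1 to 119 ± 19.1 and 116 ± 12.3 (log2 -1.52 and -1.55, edgeR adjusted p = 4.6e-16 and 2.8e-16). *Capza2* was called in *Rbbp4Ins/Ins* only, with a log2 fold change of -0.14, and *St7* in *Rbbp4Ins/Del* only, where it was higher by 0.52. The call of *Capza2* was lost without control replicate 1 (-0.10) and without *Rbbp4Ins/Ins* replicate 1 (-0.11), and that of *St7* without *Rbbp4Ins/Del* replicate 1 (0.42). The differences of *Met* and *Tes* were smaller than those of the caveolins between them.

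**Figure D4:**
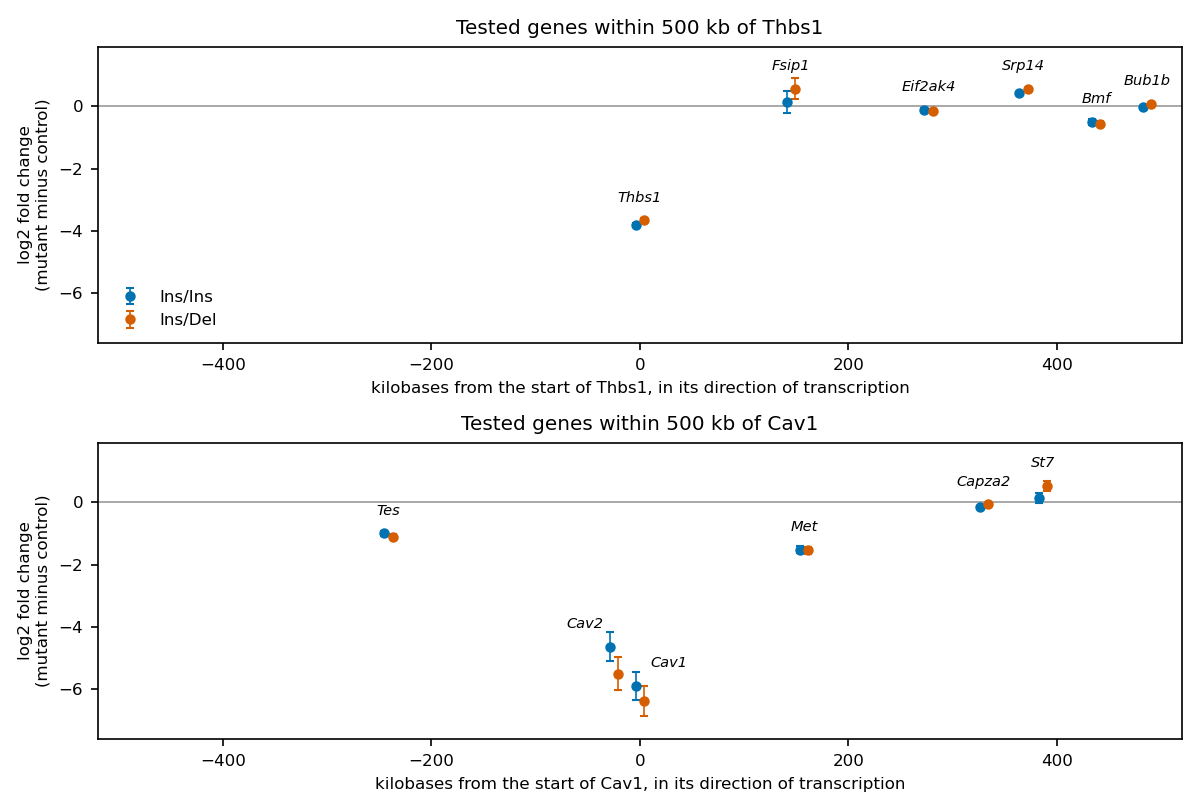
Log2 fold changes (mutant minus control, error bars standard errors) of tested genes against the distance of their start from that of *Thbs1* (top) or *Cav1* (bottom), in kilobases in the direction of transcription. Points of each gene are drawn side by side; *Thbs1* stands alone near -3.81 and -3.66, while *Tes* and *Met* flank *Cav2* and *Cav1* below 0. The values of *Cav1* and *Cav2* rest on 0 to 2 reads per mutant library.

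Over all members, 61 neighbours within 500 kb were tested, of which 18 were lower in both mutants, 9 higher in both, 24 called in neither and 10 in 1 mutant only. Over all tested genes 26.7% were lower in both and 25.6% higher in both. Beyond 2-fold in both mutants, *Met*, *Efna3* near *Thbs3* and *Serinc5* near *Thbs4* were lower, and *Wdr27* near *Thbs2* was higher. *Wdr27* had only 2.08 ± 1.95, 7.94 ± 4.32 and 14.7 ± 5.91 normalized counts (SD, n = 3) in control, *Rbbp4Ins/Ins* and *Rbbp4Ins/Del*. *Wdr27* passed the filter on low counts through mutant libraries alone, so it had to be higher in the mutants to be tested. Its call in *Rbbp4Ins/Ins* (edgeR adjusted p = 0.0082) was lost with DESeq2 (DESeq2 adjusted p = 0.021). It was also lost, with edgeR adjusted p, without control replicate 1 (0.054) or 2 (0.035), *Rbbp4Ins/Ins* replicate 1 (0.092) or 3 (0.019), or *Rbbp4Ins/Del* replicate 1 (0.012). *Serinc5* starts 184 kb from *Thbs4* and fell from 1590 ± 40.9 to 333 ± 13.4 and 266 ± 11.8 normalized counts. For *Thbs3*, with 35 tested neighbours, 10 were lower and 5 higher in both.

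The genes with the pattern most like that of *Thbs1* were picked by the root mean square difference of centred log2 CPM (counts scaled to library size) over the 9 libraries, among 12712 genes with a mean above 20 normalized counts. They were *Cdh2* (0.17), *Sema3e* (0.17), *F5* (0.23), *Anxa1* (0.25) and *Pxdc1* (0.27). *Cdh2*, N-cadherin, had 301 ± 19 normalized counts in the control, 18.7 ± 1.2 in *Rbbp4Ins/Ins* and 18.5 ± 1.25 in *Rbbp4Ins/Del*. *Sema3e*, a secreted guidance factor, had 1325 ± 58.5, 102 ± 11 and 93.6 ± 8.18. For *Cav1* they were *Sema6a* (0.31), *Acta1* (0.35), *Pcdh18* (0.36), *Fndc3c1* (0.37) and *Enpp2* (0.38). *Pcdh18* had 70.8 ± 8.36 normalized counts in the control, 0.376 ± 0.652 in *Rbbp4Ins/Ins* and 1.41 ± 0.783 in *Rbbp4Ins/Del*. It passed the filter on low counts through the control libraries alone. The likeness of *Pcdh18* and *Cav1* thus rests on mutant levels near 0 in both genes. *Cav2* had a mean below that limit of 20 and was not ranked. *Sema6a* had 442 ± 12.7, 17.6 ± 3.36 and 11.7 ± 3.01. With a prior count of 0.5 or 5 in place of 2, 4 and 3 of the 5 nearest genes of *Thbs1* stayed, and 2 and 1 of those of *Cav1*.

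Most tested fibroblast and smooth muscle markers were called lower in both mutants. Over all tested genes, 26.7% were called lower and 25.6% higher in both. Of 10 fibroblast markers, 5 were tested. *Col1a1*, *Col1a2*, *Col3a1* and *Pdgfrb* fell in both mutants, *Col1a1* from 287 to 17.0 and 24.4 and *Col1a2* from 250 to 6.43 and 9.28 normalized counts, whereas *Thy1* rose from 45.7 to 246 and 312. *Col3a1* had 31.3 in the control and at most 2 reads in any mutant library. Of the 5 not tested, *Lum* was at or below 3 reads per library in the control. The summed level of the 10 markers ran from 643 to 753 normalized counts in the control, 282 to 303 in *Rbbp4Ins/Ins* and 357 to 391 in *Rbbp4Ins/Del*.

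Of 8 smooth muscle markers, all tested, 6 were called lower in both mutants and none higher, beside 26.7% and 25.6% of all tested genes. The same shares stand beside the endothelial, primitive endoderm and ESC counts below, and nothing is read from counts near them. *Acta2* fell from 863 to 14 and 14.1 normalized counts, and the summed level from between 4465 and 4645 in the control to between 869 and 952 in *Rbbp4Ins/Ins* and between 843 and 864 in *Rbbp4Ins/Del*. *Myh11* had 7.09, 11.1 and 13.9. Of 8 endothelial markers, 7 were tested, and 1 fell and 3 rose in both mutants, with sums of 838 to 869, 1688 to 1779 and 1784 to 1837. *Emcn* had 1 read over all control libraries and 0 in the mutants. Of 8 primitive endoderm markers, 7 were tested, and 2 fell and 1 rose in both and 1 went opposite ways, with sums of 1405 to 1610, 1098 to 1214 and 1681 to 1803. In *Rbbp4Ins/Ins* 3 of the 7 were called lower and 1 higher, and in *Rbbp4Ins/Del* 2 lower and 5 higher. ESC markers summed to 93576 to 98014, 113921 to 115938 and 113226 to 115986, with 1 of 8 lower and 4 higher in both. In bulk samples, fewer cells of a type and less RNA per cell cannot be told apart, and the part of such cells in the levels of thrombospondins and caveolins was not tested.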

How the data were processed

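mRNA was profiled by RNA-seq in 9 libraries of 3 lines. The authors prepared libraries with a Kapa mRNA HyperPrep kit, aligned paired-end reads to mm10 with STAR 2.7.3 and counted them with HTSeq; annotation and strand setting are not given in the sources used here. The deposited values are raw whole-number counts for each gene symbol. Groups came from the genotype labels. Members and lists were chosen with earlier results of these data known.

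Counts were fitted with edgeR 4.0.16 in R 4.3.3 (TMM, filterByExpr, quasi-likelihood test, all libraries in 1 fit, Benjamini-Hochberg, adjusted p at most 0.01), which was tested on simulated data. Normalized counts scale each library to the mean effective library size. Library totals were 15838064 to 21366868. Genes with at most 3 reads in every library of a line were to be given a bound, but with 0 to 2 reads a ratio with an exact 95% interval replaced it. Positions and exon lengths came from GENCODE M21 (24366 symbols) and RefSeq (522 more), promoters from RefSeq GRCm38.p6; motifs were chosen after the sequences were seen. RPKM uses exon unions.

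Named genes are the 7 members, list genes past the threshold and beyond 2-fold in both mutants, *Comp*, the cavins, *Cd36* and *Cd47*, the 5 nearest patterns of *Thbs1* and *Cav1*, tested neighbours of *Thbs1*, *Cav1* and *Cav2*, and defining markers. Others (*Tgfb1*, *Sparc*, *Spp1*, *Smoc1*, *Calr*, *Lrp1*, *Itga6*, *Flna*, *Dnm2*, *Mtx1*, *Serinc5*, *Efna3*, *Wdr27*, *Adgrb3*, *Papln* and genes differing between the mutants) were chosen after their values were seen. Alternatives were DESeq2 1.42.0, its size factors, total-count scaling, no filter, fits of 2 groups, a replicate block, each library left out, a limit of 0.05 and other prior counts.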

Additional observations from a re-analysis of the deposited data

Results flagged for a closer look

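The text names 86 tested genes besides *Adgrb3* and *Papln*. Of these 86, 17 differed between the mutants by edgeR's quasi-likelihood test (Benjamini-Hochberg adjusted p at most 0.01), 10 higher and 7 lower in *Rbbp4Ins/Del*. Some of these genes (*Tgfbi*, *Tgfbr3*, *Adamts9*, *Flot2*, *Itga6* and *Smoc1* among them) are named because they differed, so this number is not to be read against the share of all genes called.

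The log2 difference, *Rbbp4Ins/Del* minus *Rbbp4Ins/Ins*, was 0.89 for *Rbbp4*, 0.87 for *Tgfbi*, 0.80 for *Tgfbr3*, 0.54 for *Sparc*, 0.53 for *Cavin1*, 0.36 for *Adamts9*, 0.34 for *Thy1*, 0.30 for *Lrp1*, 0.22 for *Spp1* and 0.13 for *Itga6*. Lower in *Rbbp4Ins/Del* were the others, with -1.19 for *Tagln*, -0.86 for *Fndc3c1*, -0.33 for *Serinc5*, -0.25 for *Sdc4*, -0.21 for *Flot2*, -0.19 for *Smoc1* and -0.10 for *Sox2*. Every one of these genes was measured in 3 libraries per line, and all adjusted p-values lay between 4.1e-24 (*Rbbp4*) and 0.0075 (*Smoc1*). *Tgfbi*, a matricellular gene, had 67.6 normalized counts in the control, 44.4 in *Rbbp4Ins/Ins* and 83.5 in *Rbbp4Ins/Del*, and *Tgfbr3*, a co-receptor for TGF-beta, had 41.1, 27.2 and 47.7.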

How the results depend on the processing

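Of 512 alternative values over 32 results with a count, 471 stayed within 1.5 times the reported count. Of 271 values for single genes and patterns, 264 kept their call or moved by less than their spread. For differences between the mutants, a value counted as kept whenever the gene stayed uncalled, however far it moved. Nothing is read from such values for *Thbs1*, *Cav1* and *Cav2*, which are not tested between the mutants. When single libraries were left out, the difference between the mutants changed sign for *Thbs2* (down to -0.21) and *Thbs4* (down to -0.07), while that of *Thbs1* stayed between 0.04 and 0.22 and that of *Thbs3* between 0.11 and 0.42. *Thbs1* stayed between -3.88 and -3.70 (log2) in *Rbbp4Ins/Ins* and between -3.73 and -3.59 in *Rbbp4Ins/Del*. *Cav1* went to -6.80 without *Rbbp4Ins/Ins* replicate 2 and to -9.08 without *Rbbp4Ins/Del* replicate 3. In the same order *Cav2* went from -4.64 to -5.09 and from -5.50 to -5.07, so its 2 shifts ran opposite ways. The libraries left out held 2 reads of *Cav1* each, and 2 and 0 reads of *Cav2*. Depth limits both genes.

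Between the mutants, genes called lower numbered 1256 and higher 1426 at an adjusted p of 0.05, against 655 and 872, and 406 to 703 and 576 to 943 when single libraries were left out. Among caveola genes differing between the mutants (2), DESeq2 left 1 and leaving out libraries 1 to 2. For TGF-beta genes, those higher in *Rbbp4Ins/Ins* (1) became 2 with no filter on low counts and 3 at 0.05, with 0 to 2 when libraries were left out, and those higher in *Rbbp4Ins/Del* (1) became 2 with DESeq2 size factors, no filter, fits of 2 groups or 0.05, with 1 to 2 when libraries were left out. Those differing between the mutants (1) became 0 with DESeq2 and 2 at 0.05, with 0 to 1 when libraries were left out. Type 1 repeat genes differing between the mutants (1) became 2 with no filter, fits of 2 groups or the replicate block and 4 at 0.05, with 0 to 2 when libraries were left out. The cause of these shifts was not tested.

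Same-numbered libraries did not deviate together (correlations of -0.03 to 0.06), which gave no sign of pairing by number but cannot exclude it. The replicate block moved no other count by over 1.5 times. *Tgfbi* was called in *Rbbp4Ins/Ins* (-0.57) but not with DESeq2 (-0.59), only 2 groups (-0.57) or without 6 of the libraries, -0.37 without *Rbbp4Ins/Ins* replicate 2 being the smallest. *Cavin3* passed in *Rbbp4Ins/Del* without *Rbbp4Ins/Del* replicate 2 (-1.29), and *Eif2ak4* with scaling by total counts (-0.18).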
